A study of Mus musculus with 16 samples.

Results

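The kynurenine pathway of tryptophan breakdown was followed in quadriceps muscle through 10 of its genes, named by their symbols: Kmo, Kynu, Kyat1, Kyat3, Aadat, Haao, Afmid, Acmsd, Qprt and Tdo2. They are 10 of the 45706 genes in the deposited table, where 8 stand under these symbols and Kyat1 and Kyat3 under their older symbols Ccbl1 and Ccbl2. The samples were 8 libraries from mice with a knockout of Nampt confined to skeletal muscle (KO) and 8 from wild-type mice (WT). NAMPT is the rate-limiting enzyme of NAD salvage from nicotinamide, and the study, by its title, is about NAD depletion and the ageing of muscle. The promoter or Cre line behind the knockout, and the strain, sex and age of the mice, were not stated in the labels. The labels name no pooling and do not say that each library is a separate mouse, so p-values measure the spread between libraries.

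Most tryptophan that is not built into protein is broken down through kynurenine. TDO2 and the IDO enzymes open the ring of tryptophan, and AFMID releases kynurenine. The kynurenine aminotransferases KYAT1, KYAT3, AADAT and GOT2 then turn kynurenine into kynurenic acid, while KMO, KYNU and HAAO carry it towards quinolinic acid. QPRT converts quinolinic acid into nicotinic acid mononucleotide, a precursor of NAD that does not need NAMPT, and ACMSD draws the intermediate away from that route towards glutarate. The full route to NAD runs mainly in liver and kidney, KMO and KYNU are also found in myeloid cells, and in mouse muscle the aminotransferases are known to be induced by the coactivator PGC-1 alpha (Ppargc1a) in endurance training.

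The sequences just before the gene start are shown for Kyat1 and Kyat3, the aminotransferase genes among the members with most of the measured RNA. Each runs 5′ to 3′ on the gene's strand over the 250 bases before the RefSeq start, from RefSeq on build GRCm38.p6, at chr2:30205848-30206097 on the minus strand (Kyat1) and chr3:142700798-142701047 on the plus strand (Kyat3). Capitals mark CpG dinucleotides.
Kyat1: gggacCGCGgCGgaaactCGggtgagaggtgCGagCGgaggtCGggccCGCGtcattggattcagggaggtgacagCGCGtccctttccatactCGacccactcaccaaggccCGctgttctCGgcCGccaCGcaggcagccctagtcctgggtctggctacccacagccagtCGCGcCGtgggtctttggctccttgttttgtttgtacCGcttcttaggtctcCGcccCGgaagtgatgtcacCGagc
Kyat3: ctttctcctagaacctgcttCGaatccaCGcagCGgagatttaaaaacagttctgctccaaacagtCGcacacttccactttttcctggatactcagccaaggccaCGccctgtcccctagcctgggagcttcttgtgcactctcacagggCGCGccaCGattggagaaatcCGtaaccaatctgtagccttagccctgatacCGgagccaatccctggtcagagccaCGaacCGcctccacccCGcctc
Kyat1 had 23 CpGs in this window and Kyat3 had 13. Of 32851 mouse promoters of the same length, 13.3% had at least as many CpGs as Kyat1 and 31.5% as many as Kyat3. Aadat, with 1 count in all libraries, had 13 CpGs as well. Its window is not like these, because 192 of its 250 bases lay inside annotated exons, against 0 for Kyat1 and 0 for Kyat3. The letters GCGTG, the core bound by the aryl hydrocarbon receptor (AHR) that senses kynurenine, were searched on both strands and occurred 1 time before Kyat1 and 2 times before Kyat3, against at least 1 match in 28.2% of all promoters. The letters AAGGTCA, bound by oestrogen-related receptors, occurred 0 times before Kyat1 and 0 times before Kyat3, against at least 1 match in 4.08% of all promoters. With so low a share over all promoters, their absence says little.

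Polyadenylated RNA was sequenced to between 16065394 and 37935479 estimated counts per library in KO and between 20133736 and 51881258 in WT. Nampt ranged from 60.4 to 88.7 CPM (counts scaled to a common library size by TMM) in KO, against 125.5 to 161.1 CPM in WT, without overlap, and fell by 0.95 on the log2 scale (edgeR quasi-likelihood, adjusted p = 9.68e-07). The 6 muscle fibre markers, among them Myh4 and Acta1, summed to 132016 to 159147 CPM in KO, against 133765 to 167235 CPM in WT. The 6 markers of kidney tubule did not exceed a summed 0.0781 CPM in KO and 0.1002 CPM in WT, and the 8 of hepatocytes did not exceed 4.73 CPM in KO and 3.31 CPM in WT. KO libraries 1, 3, 5 and 8 and WT library 8 had more RNA that carries no poly(A) tail than the other libraries. The sum of Rn7sk, Rmrp and Rpph1 was between 24.7 and 41.2 CPM in those 4 KO libraries and 18.2 CPM in WT library 8, and it did not exceed 6.02 CPM in the other KO libraries and 9.05 CPM in the other WT libraries. Its part in the results below was not tested, and values of the members without these libraries are given where they change a direction or a count or move a fold change by over 1.5 times.

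Only 5 of the 10 members, Afmid, Kyat1, Kyat3, Kmo and Qprt, passed the low-count filter that left 13792 genes to be tested. Levels of different genes were compared as CPM per kilobase of annotated exon. Kyat1 was the highest member at 4.53 ± 0.381 in KO and 4.67 ± 0.448 in WT (n = 8 each, ± SD). Afmid followed at 1.19 ± 0.198 in KO and 1.25 ± 0.252 in WT, and Kyat3 at 0.774 ± 0.110 in KO and 0.723 ± 0.132 in WT. Every library's Kyat1 level per kilobase was above every library's Afmid level, but the ranges of Afmid and Kyat3 overlapped, from 0.756 to 1.60 for Afmid and from 0.522 to 0.922 for Kyat3 over all 16 libraries. Qprt, at 0.268 ± 0.0469 in KO and 0.272 ± 0.0601 in WT, and Kmo, at 0.149 ± 0.0284 in KO and 0.0943 ± 0.0326 in WT, were lower again, each with a range apart from its neighbour's above. Got2, the mitochondrial aspartate aminotransferase that also accepts kynurenine and serves the malate-aspartate shuttle, is outside the member list and stood far above it, at 95.8 ± 6.38 CPM per kilobase in KO and 89.4 ± 6.31 in WT.

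**Figure D1:**
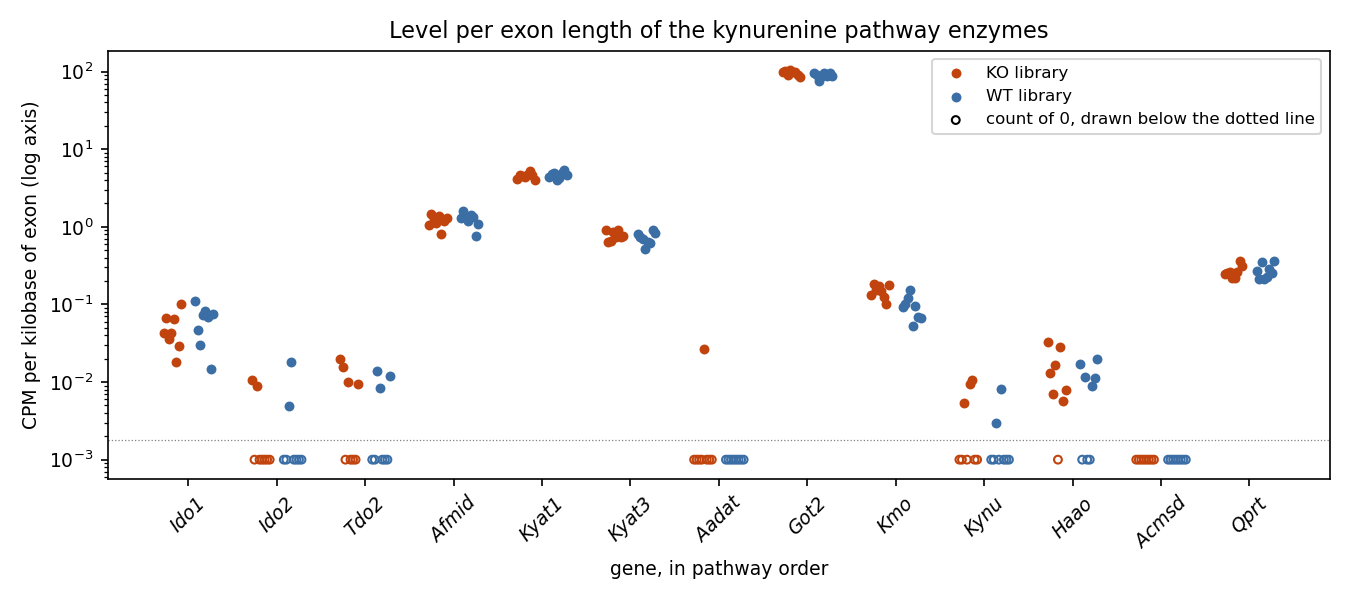
CPM per kilobase of annotated exon (log axis) in each of the 8 KO and 8 WT libraries, for the members and for Ido1, Ido2 and Got2, in pathway order; open points below the dotted line are counts of 0. Got2 and Kyat1 were highest, and Acmsd had no count in any library.

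The enzymes that open the tryptophan ring were at the edge of detection. Tdo2, the liver enzyme of that step, had 5 counts in 4 KO libraries and 5 counts in 3 WT libraries. Ido1, the interferon-induced enzyme, had between 1 and 5 counts in each KO library and between 1 and 5 in each WT library, with totals of 18 in KO and 24 in WT. Ido2 had 2 counts in KO and 3 in WT. Counts this low cannot show a difference between KO and WT for that step, and the same held for 4 other members. Haao, which opens the ring of hydroxyanthranilic acid, had 14 counts in KO and 10 in WT. Kynu, the hydrolase after KMO, had 4 counts in KO and 2 in WT. Aadat, the aminotransferase also called KAT II, had 1 count, in KO library 5, and 0 in WT. Acmsd had 0 counts in both genotypes, which allows up to 0.0143 CPM over the KO libraries and 0.0127 CPM over the WT libraries, counting error only. In a fit without the filter, over 24976 genes, 0 of the 4 members with any count passed, against 0.012% of all genes in that fit, and unadjusted p-values ran from 0.22 to 0.795 (edgeR quasi-likelihood; adjusted p from 0.676 to 0.969).

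Of the 5 members that could be tested between KO and WT, 0 passed over all genes with edgeR, against 0.0435% of all tested genes. The other tools gave the same count, 0 with limma and 0 with DESeq2, which gave no adjusted p for 3 of the 5. An unadjusted p under 0.05 was reached by 1 of 5, Kmo, against 9.57% of all tested genes, 4.02% with a higher and 5.55% with a lower level in KO. Without KO libraries 1, 3, 5 and 8 it was reached by 0 of 5, against 8.77% of all genes in that fit. In 0 of 5 members did the KO libraries lie apart from the WT libraries, against 0.123% of all tested genes. The 95% interval of the fold change lay inside 1.5-fold in either direction for 4 of 5 members, all but Kmo, against 86.2% of all tested genes.

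**Figure D2:**
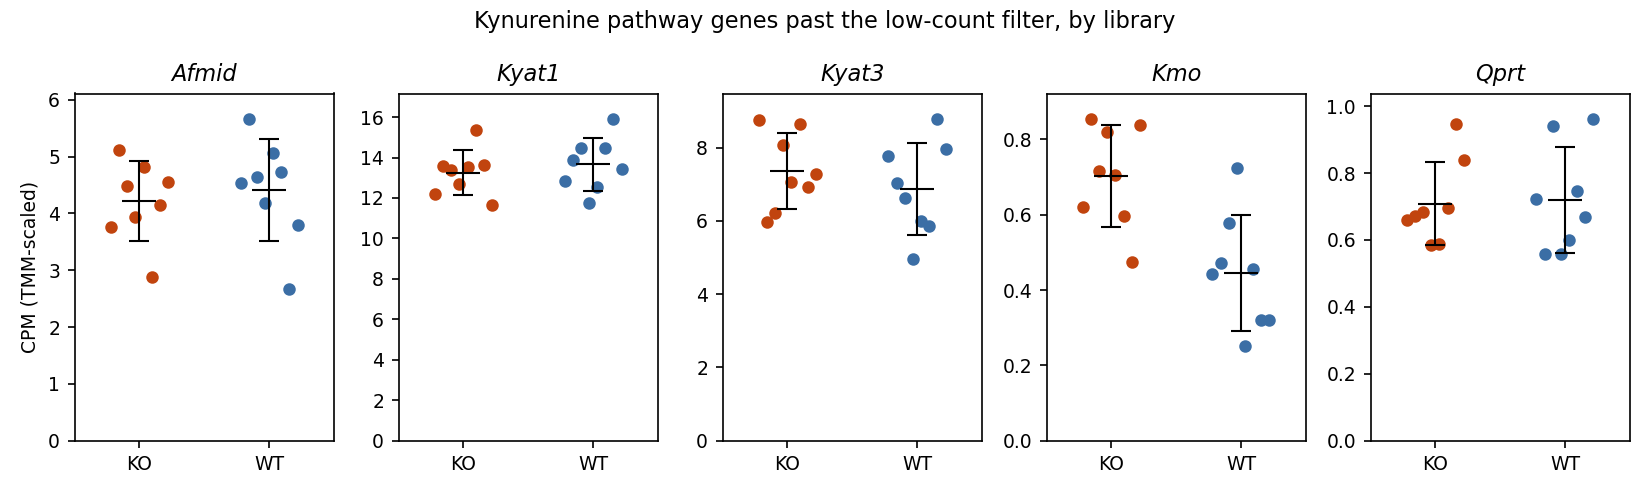
CPM of the 5 members past the low-count filter in each KO library (left) and WT library (right) of each panel; points are libraries, and the bar and whiskers are mean ± SD (n = 8 each). The ranges of KO and WT overlap in every panel, and in Kmo all 8 KO libraries are above the WT mean of 0.446 CPM.

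Afmid, the formamidase that releases kynurenine, had a lowest, median and highest level of 2.88, 4.32 and 5.12 CPM in KO, against 2.68, 4.58 and 5.66 CPM in WT. The genotypes overlapped over nearly their whole range. The log2 fold change was -0.07 (standard error 0.13; edgeR, adjusted p = 0.921), a fold of 0.954 with a 95% interval from 0.785 to 1.16. It was -0.15 on the log2 scale without WT library 7, -0.00068 without KO library 6 and -0.14 without KO libraries 1, 3, 5 and 8. Afmid (ENSMUSG00000017718, chromosome 11, 117825924 to 117839908, plus strand) shares 1566 exon bases with Gm20708, a gene model on the same strand, and 83 with Tk1 on the opposite strand. Gm20708 was listed at between 0 and 25.4 counts in KO and between 0 and 39.2 in WT, so the split of reads between it and Afmid is uncertain. With the counts of Gm20708 added, an alternative chosen after the data were seen, the log2 fold change of Afmid was 0.01.

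Kyat1 and Kyat3, the aminotransferases also called KAT I and KAT III, make kynurenic acid and need pyridoxal phosphate. Kyat1 had a lowest, median and highest level of 11.7, 13.4 and 15.4 CPM in KO, against 11.8, 13.7 and 15.9 CPM in WT. Its libraries were the closest together of the members, with a coefficient of variation of 8.40% in KO and 9.58% in WT. The log2 fold change was -0.05 (standard error 0.06; edgeR, adjusted p = 0.875), and the 95% interval of the fold, from 0.882 to 1.06, was the narrowest among the tested members. Its fold change was -0.08 on the log2 scale without KO library 6, -0.01 without WT library 7 and 0.01 without KO libraries 1, 3, 5 and 8.

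Kyat3 had a lowest, median and highest level of 5.97, 7.17 and 8.76 CPM in KO, against 4.97, 6.83 and 8.78 CPM in WT. In KO 6 of 8 libraries were above the WT mean, but none was above the highest WT library. The log2 fold change was 0.10 (standard error 0.11; edgeR, adjusted p = 0.827), a fold of 1.07 with an interval from 0.912 to 1.26. It was 0.16 without WT library 7 and 0.05 without WT library 4. Kyat1 (ENSMUSG00000039648) lies on chromosome 2 at 30185124 to 30205847 on the minus strand, and Kyat3 (ENSMUSG00000040213) on chromosome 3 at 142701051 to 142746870 on the plus strand. The antisense gene Gm15540 shares 264 exon bases with Kyat3 and had 0 counts in every library.

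The same libraries stood at the ends of several members' ranges. KO library 6 and WT library 7 had the lowest Afmid of their genotypes, at 2.88 and 2.68 CPM, and the highest Kyat1, at 15.4 and 15.9 CPM. WT library 7 also had the highest Kyat3 of any library, and KO library 6 the second highest of the KO libraries, at 8.64 CPM. No label sets these libraries apart.

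For each of these 3 members, the genes with the most similar pattern over the 16 libraries were sought among 11544 other tested genes. These had a mean of at least 1 CPM, and genes with gene-model names (Gm with a number, or ending in Rik) were left out. Likeness was described by Pearson's r of log2(CPM + 0.5), centred within genotype. Kyat1 was most like Cct7 (r = 0.91), a subunit of the chaperonin that folds actin and tubulin, followed by Nfyb (0.88), a subunit of the CCAAT-binding factor, and Hmgn2 (0.87), a nucleosome-binding protein. Kyat3 was most like Dixdc1 (0.90), then Dctn1 (0.83), the large dynactin subunit, and the non-coding gene Epb41l4aos (0.83). Afmid was most like Ccnq (0.91), a cyclin, then Fitm1 (0.88), a lipid-droplet protein of muscle, and Klhdc10 (0.87). None of these 9 genes passed the test of KO against WT, with log2 fold changes between -0.20 and 0.28 (edgeR, adjusted p from 0.595 to 0.970). As the closest of many genes, they are named as a description only.

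Kmo, the FAD-dependent hydroxylase that turns kynurenine into 3-hydroxykynurenine, had the largest fold difference of the tested members. Its deposited counts were 16, 14, 22, 21, 12, 18, 18 and 23 in KO libraries 1 to 8, and 11, 11, 32, 22, 5, 11, 12 and 7 in WT libraries 1 to 8. Scaled to depth, the lowest, median and highest levels were 0.473, 0.711 and 0.853 CPM in KO, against 0.250, 0.449 and 0.724 CPM in WT. All 8 KO libraries were above the WT mean, 3 KO libraries were above the highest WT library, and 6 WT libraries were below the lowest KO library. The means were 0.703 ± 0.134 CPM in KO and 0.446 ± 0.154 CPM in WT (SD, n = 8 each). The log2 fold change was 0.60 (standard error 0.20), a fold of 1.51 with an interval from 1.13 to 2.03. It did not pass over all genes (edgeR, unadjusted p = 0.00851, adjusted p = 0.318), and over the alternatives with a value the adjusted p ran from 0.203 to 0.645. Without KO libraries 1, 3, 5 and 8 the log2 fold change was 0.55 with an unadjusted p of 0.0682 (edgeR, adjusted p = 0.596). A log2 fold change at least as far towards KO was found for 0.486% of all tested genes. Only 4.58% of tested genes had a lower mean CPM than Kmo, and the share among genes of like level was not computed. At these counts sampling alone gives a coefficient of variation of about 25.0%, and the observed values were 19.1% in KO and 34.5% in WT. Kmo (ENSMUSG00000039783) lies on chromosome 1 at 175620381 to 175662116 on the plus strand, and its gene body overlaps Fh1 on the opposite strand with 0 shared exon bases.

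Kmo varied with the macrophage markers. Within genotypes, the log2 level of Kmo followed the summed level of 12 macrophage markers (Pearson's r = 0.70, permutation p = 0.00286; Spearman's rho = 0.67, permutation p = 0.0054; n = 16, two-sided). Adjusted over the 4 relations computed, the permutation values were p = 0.0114 and p = 0.0216. Within KO r was 0.76 and within WT it was 0.66. Without WT library 4 and KO library 7, the libraries farthest from the median of the marker sum, r was 0.50 (permutation p = 0.067), so the relation rests in part on them. The marker sum itself had a lowest, median and highest value of 139.7, 227.5 and 327.6 CPM in KO, against 136.3, 214.9 and 353.9 CPM in WT. Of the 12 markers 0 passed the test with edgeR, against 0.0435% of all genes, and 0 had an unadjusted p under 0.05, against 9.57%. Their log2 fold changes had a median of 0.06, with the most abundant, Lyz2 and Csf1r, at 0.06 and 0.05. These fold changes ran from -0.04 to 0.14, and 11 of 12 were above 0, against 7146 of 13792 for all tested genes. With the marker sum as a covariate, added after the data were seen, the log2 fold change of Kmo was 0.57 (adjusted p = 0.203). Tissue RNA does not show which cells carry Kmo, and the cause of its difference between KO and WT was not tested. More cells that carry Kmo and more Kmo RNA per cell cannot be told apart. How many of all genes follow the marker sum as closely was not computed.

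**Figure D3:**
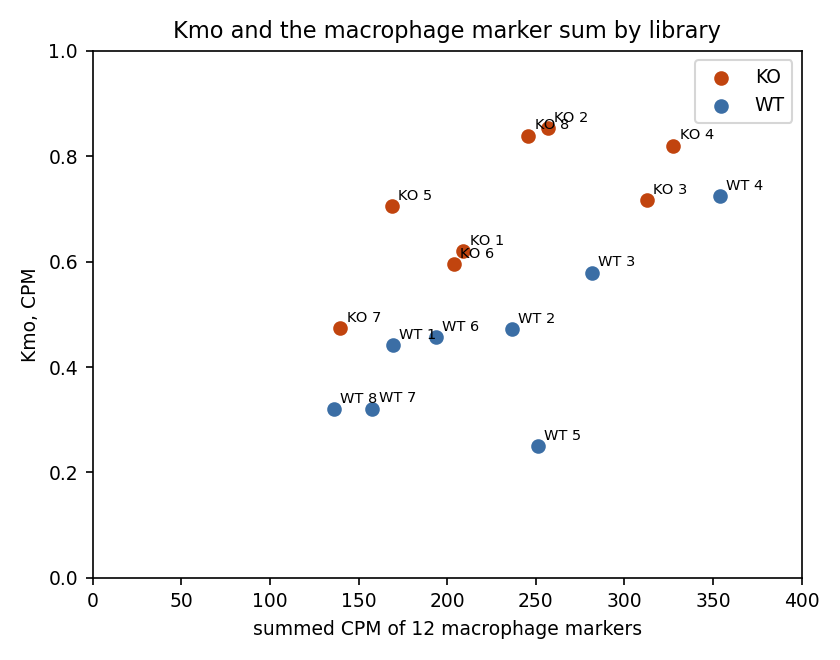
Kmo in CPM against the summed CPM of 12 macrophage markers, by library, with KO in red and WT in blue. Kmo tended to be higher where the marker sum was higher in both genotypes, with exceptions. WT library 5 had the lowest Kmo, at 0.250 CPM, with a marker sum of 251.0 CPM. The marker sums of KO and WT span nearly the same range.

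Qprt, the last enzyme of the route to nicotinic acid mononucleotide, had a lowest, median and highest level of 0.586, 0.677 and 0.946 CPM in KO, against 0.557, 0.696 and 0.961 CPM in WT. The groups covered the same range. The log2 fold change was -0.02 (standard error 0.16; edgeR, adjusted p = 0.988), a fold of 0.988 with an interval from 0.785 to 1.24. Its direction turned under several alternatives, among them to 0.02 on the log2 scale without KO libraries 1, 3, 5 and 8, and with 1 library left out it ran from -0.10 without KO library 7 to 0.07 without WT library 3. Of the 3 enzymes that lead from the product of KMO to nicotinic acid mononucleotide, Kynu, Haao and Qprt, Qprt was the only member to pass the filter, at between 10 and 36 counts per KO library and between 12 and 52 per WT library. Qprt (ENSMUSG00000030674) lies on chromosome 7 at 127107114 to 127122226 on the minus strand.

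Genes around the pathway were described by 10 lists of 67 genes in all, members and Got2 included, of which 46 were tested. Of these 46, 0 passed with edgeR or limma, against 0.0435% of all genes with edgeR and 0.0363% with limma. With DESeq2 0 were called too, against 0.696% of all 13792 genes, but 13 of the 46 were left without an adjusted value. Tph1, with an unadjusted p of 9.49e-06 in DESeq2, was among those 13. The DESeq2 count therefore does not show that all 46 failed its test. In all 6 of 46 reached an unadjusted p under 0.05, 2 higher and 4 lower in KO, against 9.57% of all genes, 4.02% higher and 5.55% lower. The median log2 fold change was -0.01, against 0.00 over all genes. Intervals lay inside 1.5-fold for 41 of 46 genes (89.1%), near the 86.2% of all tested genes.

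Aminotransferase regulators had 3 of 6 genes at an unadjusted p under 0.05, 1 higher and 2 lower in KO, against 9.57% of all genes, and 0 called. Without KO libraries 1, 3, 5 and 8 the count was 1 of 6, Ppard, against 8.77% of all genes in that fit. Ppargc1a averaged 29.7 ± 1.91 CPM in KO and 35.4 ± 12.2 CPM in WT (log2 fold change -0.26, standard error 0.14, adjusted p = 0.6 with edgeR), and WT library 7, at 63.9 CPM, stood apart from the other WT libraries, of which the highest had 38.1 CPM. Without WT library 7 its log2 fold change was -0.08. Ppargc1b, the related coactivator PGC-1 beta, was the gene with a higher level in KO, averaging 11.0 ± 0.912 CPM in KO and 9.64 ± 1.13 CPM in WT, with 7 of 8 KO libraries above the WT mean (log2 fold change 0.19, unadjusted p = 0.0163, adjusted p = 0.385 with edgeR). Esrra, an oestrogen-related receptor that works with PGC-1 alpha, averaged 78.8 ± 5.50 CPM in KO and 86.1 ± 5.49 CPM in WT, and Ppard, a fatty acid receptor, 31.1 ± 2.08 CPM in KO and 34.3 ± 3.17 CPM in WT. Their log2 fold changes were -0.13 and -0.14 (edgeR, adjusted p = 0.385 and 0.433). Without KO libraries 1, 3, 5 and 8 that of Esrra was -0.07, and -0.05 without WT library 8 as well. Over the 16 libraries, centred within genotype, no relation of the aminotransferases to Ppargc1a passed the test after adjustment. Pearson's r was 0.30 for Kyat1 and 0.29 for Kyat3 (permutation p = 0.262 and 0.282), with Spearman's rho of -0.03 and 0.08 (permutation p = 0.906 and 0.77). Without WT libraries 7 and 8 r was -0.28 for Kyat1 and 0.07 for Kyat3. Got2 had r = 0.42 (permutation p = 0.109) and rho = 0.53 (permutation p = 0.0352; adjusted over the 4 relations, p = 0.0704), and r = 0.50 without those libraries. Got2 itself averaged 462.3 ± 30.8 CPM in KO and 431.4 ± 30.4 CPM in WT, with a log2 fold change of 0.10 (standard error 0.05; edgeR, adjusted p = 0.561). Without KO libraries 1, 3, 5 and 8 it was 0.14 (edgeR, adjusted p = 0.527). In that fit Got2 was the 1 of 3 tested genes from kynurenine to kynurenic acid with an unadjusted p under 0.05. The share over all genes was 8.77%. The count was 0 of 3 with all libraries, and 0 of 3 without WT library 8 as well.

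The glutarate branch below ACMSD, 7 of 9 genes tested, and the NAD-forming steps below QPRT, 6 of 7 tested, had 0 genes called with edgeR. Both had 0 at an unadjusted p under 0.05, against 9.57% of all genes, a share at which lists this short can hold 0. Without KO libraries 1, 3, 5 and 8 each had 1 gene at an unadjusted p under 0.05, against 8.77% of all genes in that fit. Dlst and Acat1, mitochondrial enzymes shared with the citric acid cycle and with ketone and isoleucine breakdown, had log2 fold changes of -0.00 and -0.01. Nmnat1, the nuclear enzyme that adds adenylate to complete NAD, had 0.05, and Nadk2, the mitochondrial NAD kinase, -0.01. Of 8 transporters of tryptophan and kynurenine 5 were tested. Only 1, Slc7a8, a light chain of the amino acid exchanger family, reached an unadjusted p below 0.05. Over all tested genes the share was 9.57%, with 5.55% lower in KO. Slc7a8 averaged 13.4 ± 2.05 CPM in KO against 16.0 ± 3.22 CPM in WT (log2 fold change -0.26, edgeR, adjusted p = 0.476). Without KO libraries 1, 3, 5 and 8 the transporter count was 0 of 5, where the share over all genes was 8.77%. Without WT library 3 the log2 fold change of Slc7a8 was -0.18 (edgeR, unadjusted p = 0.108). Slc16a10 and Slc3a2, an aromatic amino acid carrier and the exchangers' heavy chain, had log2 fold changes of -0.11 and -0.01.

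Genes that sense kynurenine or kynurenic acid, 7 of 11 tested, had 0 at an unadjusted p under 0.05, against 9.57% of all genes, and 0 called with edgeR. Ahr averaged 2.89 ± 0.486 CPM in KO and 2.62 ± 0.358 CPM in WT (log2 fold change 0.14), and its partner Arnt had a log2 fold change of 0.02. Cyp1a1, the classic AHR target, averaged 0.813 ± 0.378 CPM in KO and 0.947 ± 0.403 CPM in WT (log2 fold change -0.25, with an interval from -0.86 to 0.35). Other genes of this list went both ways, with log2 fold changes of -0.30 for Cyp1b1, 0.11 for Tiparp and 0.03 for Nqo1. Gpr35, a receptor for kynurenic acid, did not pass the filter, with 99 counts in KO and 77 in WT. Scaled to depth, it averaged 0.466 ± 0.171 CPM in KO and 0.309 ± 0.0843 CPM in WT. The groups overlapped, with 4 KO libraries above the highest WT library, and the difference was not tested. The 3 tested genes of pyridoxal phosphate supply, the cofactor of KYNU and the aminotransferases, had log2 fold changes between -0.07 and 0.08, with Prosc at 0.07 and Pdxk at 0.08.

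Tph1, which opens the competing route from tryptophan to serotonin, had the largest fold difference in the 10 lists. It was chosen for mention with its values known. Its lowest, median and highest levels were 0.394, 1.21 and 2.60 CPM in KO, against 1.14, 3.82 and 5.66 CPM in WT. All 8 KO libraries were below the WT mean of 3.62 CPM, and the genotypes overlapped between the lowest WT library, WT 8, and the highest KO library, KO 1. The log2 fold change was -1.53 (standard error 0.34; edgeR, unadjusted p = 0.000277, adjusted p = 0.139), and it did not pass over all genes. Over 27 alternatives it ran from -2.09 to -1.37, and in the 26 of them with an adjusted p this lay between 0.0362 and 0.317 and passed in 1, the fit with the macrophage covariate. The other, DESeq2, gave no adjusted p and an unadjusted p of 9.49e-06. Mast cells also make serotonin, and 6 of 9 of their markers were tested, with 0 at an unadjusted p under 0.05, against 9.57% of all genes. The markers Ms4a2, Fcer1a and Tpsab1 did not pass the filter. The mast cell marker sum ranged from 10.6 to 21.5 CPM in KO, against 12.6 to 17.0 CPM in WT. Whether mast cells had a part in the Tph1 difference was not tested. Wars and Maob, the tryptophan-tRNA synthetase and a monoamine oxidase, had log2 fold changes of 0.03 and -0.12.

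**Figure D4:**
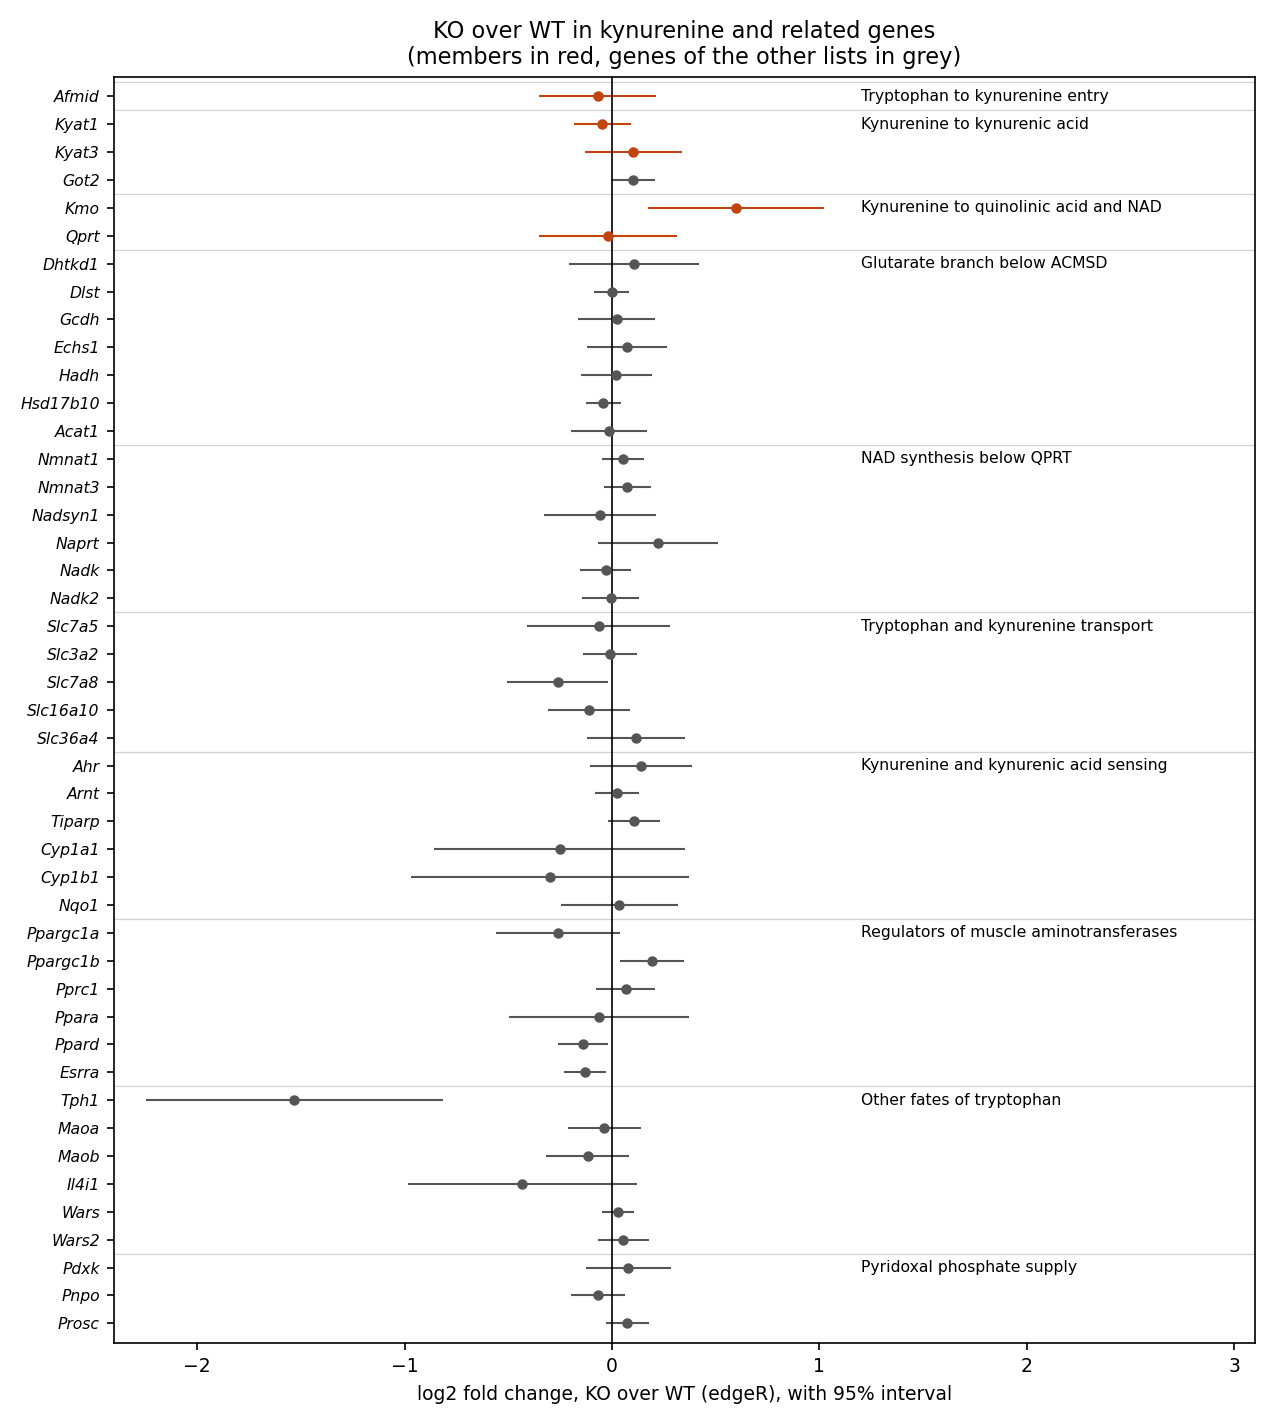
Log2 fold change of KO over WT with its 95% interval (edgeR) for 45 of the 46 tested genes of the 10 lists, with members in red and the other genes in grey. Intervals of Kmo, at 0.60, and Tph1, at -1.53, lie farthest from 0, and 0 of the 46 genes passed the test over all genes.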

How the data were processed

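Polyadenylated RNA of quadriceps was measured in 8 KO and 8 WT libraries. The authors deposited estimated counts per gene, with no scaling to depth. The submitters' processing notes name bcl2fastq 4.0.3, STAR, Salmon and build GRCm38; the versions of the last tools, the annotation and whether counting used strand are not given. Of the values 11.1% were not whole, and all were rounded to whole numbers. Table columns that matched no library numbered 0. Libraries within a genotype differed well beyond sampling noise (lowest chi-square per degree of freedom 8.09 in KO and 9.42 in WT), and all 16 were kept.

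KO and WT were compared with edgeR 4.0.16 in R 4.3.3 (quasi-likelihood F test, TMM, default low-count filter, no covariate), with Benjamini-Hochberg adjustment over 13792 genes and a threshold of 0.05. Genes removed by the filter held 0.0705% of the counts. CPM use TMM-scaled library sizes. Intervals (95%) use the standard error implied by the F statistic, and limits for a count of 0 use 3 counts and cover counting error only. Alternatives were other scalings, filters, covariates, left-out libraries, a replicate block, DESeq2 1.42.0 and limma 3.58.1. Coordinates and exon lengths come from GENCODE M21 (GRCm38), promoter sequences from RefSeq.

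The members and lists were chosen with earlier results of these data known. Named genes are the members, Nampt, Ido1, Ido2 and Got2, the 2 most abundant genes of each other list where none was called, and the 3 genes most like each member of at least 1 CPM; the lists of mast cell genes and of RNA without a poly(A) tail were added after the data were seen. Genes named outside that rule (Tph1, Slc7a8, Ahr, Cyp1a1, Cyp1b1, Tiparp, Nqo1, Gpr35, Ppargc1b) were chosen after their values were seen. Ppargc1a was named for its planned relations and others for overlapping a member. Relations of Kynu to the macrophage sum and of Aadat to Ppargc1a were planned and not computed, as each gene had fewer than 50 counts in all. Of 67 list genes, Pdxp was not matched. Some items that these rules take are not reported here.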

Additional observations from a re-analysis of the deposited data

Results flagged for a closer look

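Of 18 groups of 8 libraries looked at (9 genes in KO and in WT), 2 held a library far from the rest, where chance gives about 1 in 20 groups. Ppargc1a in WT library 7, at 63.9 CPM, stood above the next WT library, at 38.1 CPM. Got2 in WT library 3, at 367.8 CPM, stood below the next WT library, at 421.7 CPM. WT library 3 was the deepest library of the series.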

How the results depend on the processing

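Over 27 alternative fits, 0 members were called in any. The number of genes called over all genes was 6 in the reported fit. It was 2 with DESeq2's size factors, 3 with no low-count filter, 96 with DESeq2 (15 higher, 81 lower), 2 without KO libraries 1, 3, 5 and 8, 2 without these and WT library 8, 20 with the macrophage covariate and between 2 and 8 when 1 library was left out. The replicate block gave 2. Libraries with the same number deviated together with r from -0.11 to 0.25, over 0.1 in 3 of 8 pairs, and 2 of 8 KO libraries correlated best with their own number, so the numbers were not taken as pairs. Members below the filter gave 0 calls in each fit tried.

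Kmo kept its direction in 26 of 26 alternatives, with log2 fold changes from 0.49 to 0.73, and Kyat3 in 27 of 27, from 0.05 to 0.16. Kmo and Qprt had no value with at least 1 CPM required in 8 libraries. Kyat1 turned to 0.0148 without KO libraries 1, 3, 5 and 8 and to 0.0103 without these and WT library 8, and Afmid to 0.00533 with Gm20708 added. Qprt turned to 0.0101 with RIN as a covariate, 0.0186 without those KO libraries and 0.0761 without WT library 8 as well, and ran from -0.0987 to 0.0657 with 1 library left out. The relation of Kmo to the macrophage sum fell to r = 0.50 and that of Kyat1 to Ppargc1a turned to r = -0.28 without the 2 farthest libraries. Per kilobase of the longest coding transcript, means over 16 libraries were 6.54 for Kyat1, 1.69 for Kyat3, 1.85 for Afmid, 0.348 for Qprt and 177 for Got2. The causes were not tested. Depth limits what the counts of Kmo, Qprt and the 5 members below the filter can show.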
